A study of Mus musculus with 12 samples.

Results

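This comparison set 3 libraries of LPS-treated monocytes from succinate-treated mice against 3 libraries of LPS-treated monocytes from control mice, which are 6 of the 12 libraries of the study. Members were taken by their sample titles, with no use of measured values. The mice received 300 mM succinate for 7 days or none, and the series title calls the supplementation dietary. CD11b+Ly6Chi cells, the classical inflammatory monocytes, were then sorted from bone marrow and kept in culture without stimulus or with lipopolysaccharide (LPS) for 4 h. The control LPS group thus had LPS alone, and the succinate LPS group had succinate in the animal and LPS in the dish. The other 6 libraries are the unstimulated control and succinate groups, 3 libraries each, and entered the fit to share its estimate of spread. The labels give no strain, sex, age or LPS dose, nor the number of animals behind a library. The p-values therefore measure only the spread between these libraries, which may be technical.

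LPS is sensed by Toll-like receptor 4 with its co-receptor CD14. One arm of that receptor drives NF-κB and inflammatory cytokines, and another drives type I interferon, which in turn induces antiviral genes through STAT proteins and interferon regulatory factors. Succinate is a tricarboxylic acid cycle intermediate that accumulates in LPS-activated macrophages, can stabilise HIF-1α by inhibiting prolyl hydroxylases, and acts from outside the cell on the receptor Sucnr1. Itaconate, made by Acod1 in the same cells, inhibits succinate dehydrogenase. The question put to the data is whether prior succinate altered the monocyte response to LPS, and the series title names the IL-4 receptor alpha chain and Hif-1α as the route of interest.

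In LPS-treated monocytes 9 genes were lower with succinate and none was higher. The lower genes were Rps6ka2, Por, Cyp4f18, Rusc2, Slc6a8, Vwf, Fnip2, Zfp503 and Kif1c, with differences from 1.65-fold (Kif1c) to 2.57-fold (Vwf). In edgeR's quasi-likelihood test, with Benjamini-Hochberg adjustment over 14324 tested genes and a threshold of 0.05, the 9 genes lower were 0.0628% of the genes tested, and the genes higher were 0%. At an unadjusted p below 0.05 there were 508 genes higher and 1172 lower. DESeq2 called 23 genes higher and 323 lower, and limma-voom 0 higher and 34 lower. Only Vwf passed the test with a difference of at least 2-fold, 0.00698% of the genes tested. The median log2 fold change over all tested genes was -0.014.

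The count of called genes rested on single libraries. Leaving out control LPS replicate 1, control LPS replicate 2, succinate LPS replicate 1 or succinate LPS replicate 2 left 0 called genes in each case. Leaving out control LPS replicate 3 gave 73 lower and 6 higher, and leaving out succinate LPS replicate 3 gave 181 lower and 16 higher. In 7 of 17 alternative analyses no gene was called, and the highest adjusted p over the alternatives was 0.341 to 0.365 among the 9 genes. In 9 of the 17 all 9 genes were called. The differences themselves kept their direction and stayed about as large in all 17. Over the alternatives the log2 fold change was -0.85 to -0.68 for Rps6ka2, -0.78 to -0.61 for Por, -0.91 to -0.74 for Cyp4f18 and -1.56 to -1.20 for Vwf. The value nearest to 0 for any of the 9 in any alternative was -0.60, for Kif1c.

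**Figure D1:**
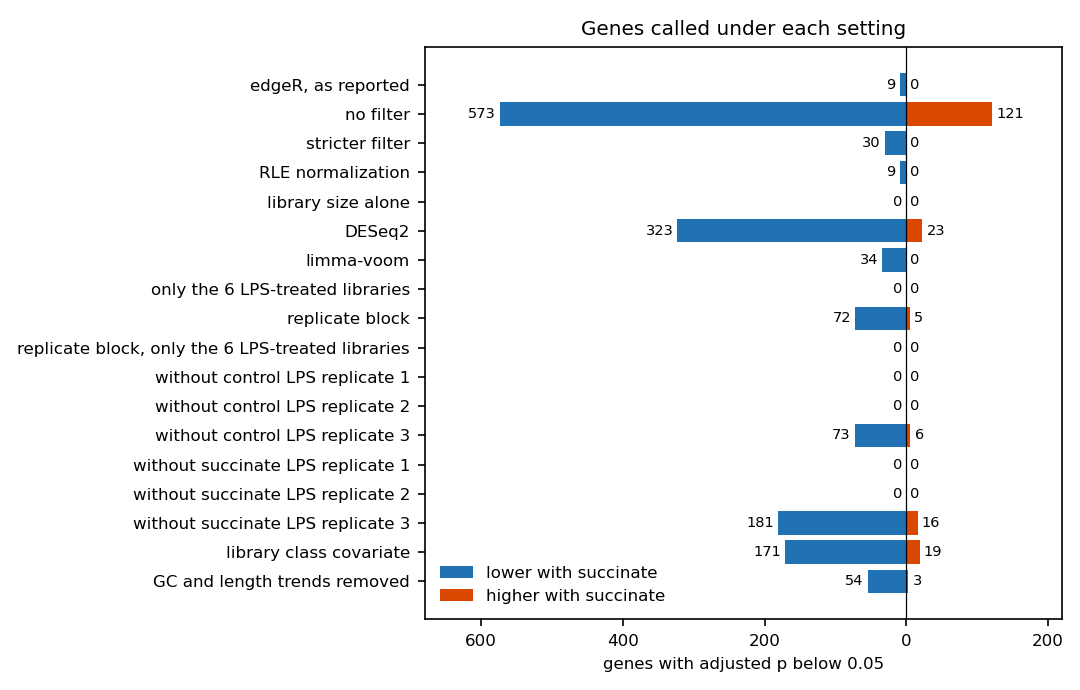
Number of genes with an adjusted p below 0.05 (horizontal axis, lower to the left and higher to the right of 0) in the reported edgeR analysis (top bar) and in each of 17 alternatives. Calls range from 0 to 573 lower and from 0 to 121 higher, and lower calls exceed higher calls in each analysis that made any.

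Several library properties moved with the groups. Total counts per library in the 12 libraries were 15975882 to 18306747. They were 15975882 to 17542158 in the control LPS libraries and 17484192 to 18306747 in the succinate LPS libraries, ranges that overlap. Genes detected numbered 19429 to 20796 and 20868 to 21183, with no overlap. Counts from mitochondrially encoded genes made up 0.984% to 1.07% of the total in the control LPS libraries and 1.22% to 1.26% in the succinate LPS libraries. Ribosomal protein genes made up 3.22% to 3.32% and 3.9% to 4.1%. TMM scaling factors, which set each library's effective size, were 0.936 to 0.965 with control and 1.016 to 1.056 with succinate. With library size alone in place of TMM, no gene was called and the median log2 fold change over all genes was 0.107 instead of -0.014, while the log2 fold changes of the 9 genes were all below 0, none nearer to 0 than -0.60. Control LPS replicate 3 also stood apart among the LPS-treated libraries: the mean log2 CPM (CPM being counts scaled to a common library size) of S100a4, Rpl24, Rpl10-ps3, Gm14303 and Rpl35a-ps2 was 3.92 there and 0.84 to 1.36 in the other 5 LPS-treated libraries. In both unstimulated groups this mean was low in replicate 1 (1.16 with control and 1.45 with succinate) and high in replicates 2 and 3 (3.23 to 4.02). With a covariate for this split in the fit, 171 genes were lower and 19 higher, among them all 9. The part of the other library properties in the results was not tested.

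The sort was checked against markers, whose CPM were summed per library. Ly6C-high monocyte markers summed to 2013 to 2083 CPM in the control LPS group and 1534 to 2431 CPM in the succinate LPS group. Neutrophil markers (Ly6g, S100a8, S100a9, Camp, Ltf, Ngp and others), several of which marrow monocytes and their precursors also transcribe, summed to 13743 to 18898 and 14912 to 17001. Progenitor markers, among them Kit, Mpo and Elane, summed to 2078 to 4687 and 3714 to 4467. Those 3 sums overlapped between the groups. All 6 progenitor markers had a log2 fold change above 0, with a median of 0.32 that was 0.58 without control LPS replicate 3, and none was called. The B-cell sum (6 of 6 markers tested, none called) was 12.1 to 19.4 CPM with control and 22.2 to 29.9 with succinate. The T- and NK-cell sum, which is almost all Nkg7, was 17.7 to 30.2 and 31.5 to 41.1, while Cd3e had 18 counts and Ncr1 had 2 over all 12 libraries. Macrophage markers summed to 794 to 938 and 742 to 876, with C1qa at 45 counts and Mertk at 31 counts over the 12 libraries. No marker was at 0 in all 6 LPS-treated libraries. Dendritic cell markers summed to 20.8 to 29.1 CPM with control and 19.4 to 19.5 with succinate. Both lymphoid sums were higher, and the dendritic sum lower, in each succinate LPS library than in any control LPS library, and their part in the results was not tested. In sorted bulk RNA, fewer cells of a type and less RNA per cell cannot be told apart.

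The 9 genes belong to signalling, oxidation of haem and lipids, transport, nutrient sensing and gene regulation. Rps6ka2 encodes RSK3, a kinase that ERK activates. Its CPM was 173, 182 and 170 in the control LPS libraries and 93.5, 107 and 101 in the succinate LPS libraries, so each succinate library was below each control library. The log2 fold change was -0.80 ± 0.10 (SE, n = 3 and 3; adjusted p = 0.0221). Unstimulated control cells had 68.5 ± 3.27 CPM (SD, n = 3), so the succinate LPS level lay between the unstimulated and the LPS control level. RefSeq's promoter window of this gene held none of the motifs searched.

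Por and Cyp4f18 both belong to the cytochrome P450 system. Por encodes the reductase that passes electrons to microsomal P450 enzymes and to haem oxygenase. Its CPM was 481, 440 and 494 with control and 271, 304 and 277 with succinate after LPS, against 761 ± 43.7 (SD, n = 3) in unstimulated control cells. Its log2 fold change was -0.73 ± 0.10 (SE; adjusted p = 0.0221), and the groups did not overlap. Cyp4f18 encodes a P450 that hydroxylates leukotriene B4. It had 119, 120 and 117 CPM in control LPS libraries and 62.3, 69.3 and 63.5 in succinate LPS libraries, with no overlap. The log2 fold change was -0.87 ± 0.12 (SE; adjusted p = 0.0221). Unstimulated control cells had 28.2 ± 5.01 CPM (SD, n = 3), so as with Rps6ka2 the succinate LPS level lay above the unstimulated one.

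Fnip2 encodes a partner of folliculin, a complex that ties amino acid supply at the lysosome to mTORC1 and to the transcription factors TFEB and TFE3. Its CPM was 443, 371 and 387 with control and 207, 245 and 272 with succinate, a log2 fold change of -0.73 ± 0.12 (SE; adjusted p = 0.0327). Its partner Flcn did not pass the test, with 123 ± 19.1 and 91.0 ± 2.28 CPM (SD, n = 3; log2 fold change -0.43, adjusted p = 0.158). Slc6a8, the creatine transporter, had 32.3, 32.6 and 24 CPM with control and 15.3, 14 and 16.6 with succinate (log2 fold change -0.95 ± 0.14, SE; adjusted p = 0.0261). No succinate library reached the lowest control library in either called gene.

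Vwf, the platelet adhesion glycoprotein known from endothelium and megakaryocytes, showed the largest fold change among the 9. Its CPM was 32.3, 27.4 and 19.9 with control and 7.90, 13.1 and 10.1 with succinate, and 66.2 ± 4.31 (SD, n = 3) in unstimulated control cells. The log2 fold change was -1.36 ± 0.21 (SE; adjusted p = 0.0294). Megakaryocyte markers (Pf4, Ppbp, Itga2b and Gp9) summed to 1.86 to 2.8 CPM in the control LPS libraries and 2.26 to 3.56 CPM in the succinate LPS libraries. These ranges overlap. Rusc2, which binds the secretory pathway GTPase Rab1, had 154, 124 and 105 CPM with control and 62.6, 75.5 and 70.7 with succinate (log2 fold change -0.88 ± 0.13, SE; adjusted p = 0.0261). Kif1c, a kinesin that carries vesicles along microtubules, had 221, 194 and 205 CPM with control and 103, 125 and 147 with succinate (-0.72 ± 0.12, SE; adjusted p = 0.0461). Zfp503, a zinc finger transcriptional regulator, had 20.2, 16.7 and 17.7 CPM with control and 8.68, 11.1 and 11.5 with succinate (-0.81 ± 0.13, SE; adjusted p = 0.0362). The succinate libraries of all 4 genes lay below all control libraries. Unstimulated control cells had means of 1047 CPM for Fnip2, 55.8 for Slc6a8, 296 for Kif1c, 37.1 for Zfp503 and 123 for Rusc2. Apart from Rusc2, these genes and Por and Vwf had lower means in control LPS than in unstimulated control libraries, and lower still in succinate LPS libraries.

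**Figure D2:**
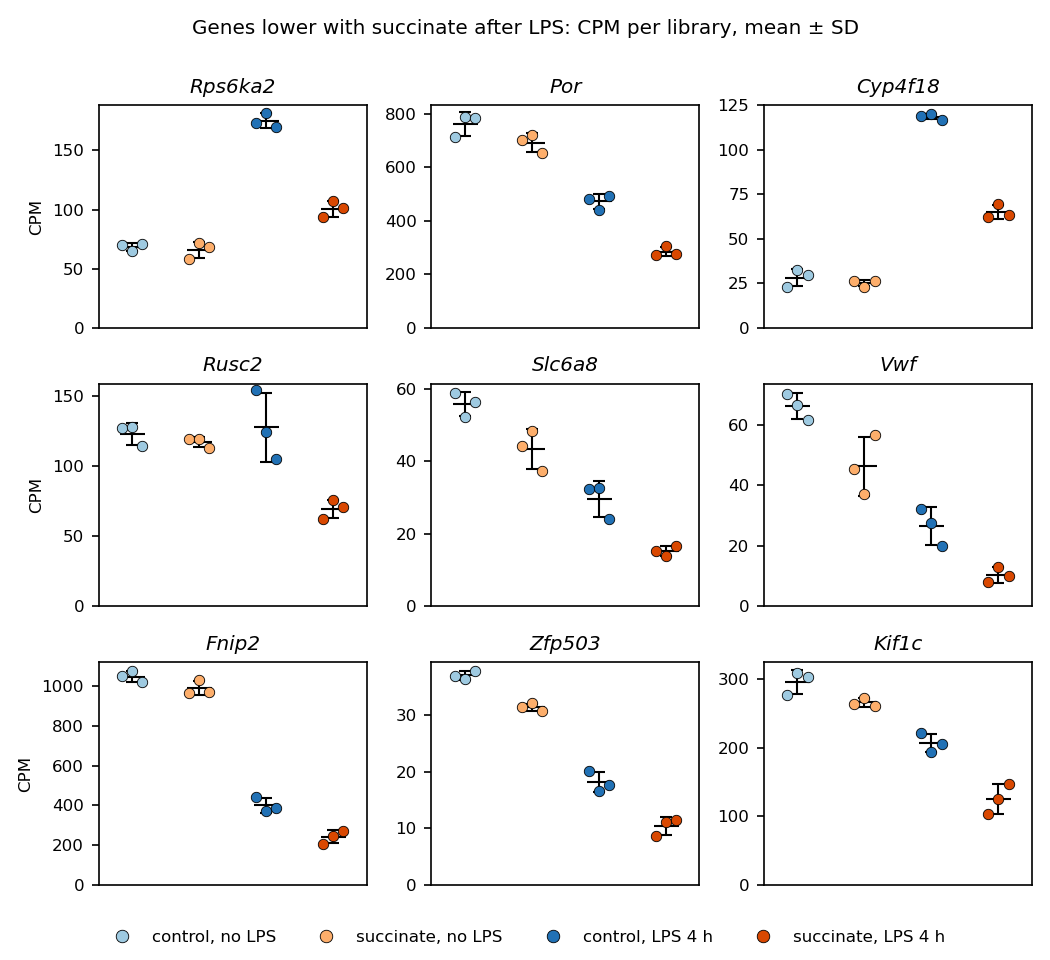
CPM per library (vertical axis, linear from 0) of the 9 genes called lower with succinate after LPS, in the 4 groups, with points for libraries, long bars for means and error bars for SD (n = 3). In each panel the 3 succinate LPS libraries lie below the 3 control LPS libraries; in unstimulated cells the difference has the same sign and passed the test for none of the 9.

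The same contrast without LPS called 0 genes in edgeR (0%), with 535 genes at an unadjusted p below 0.05, 1 gene called by DESeq2 and 0 by limma-voom. For the 9 genes the sign was the same without LPS in 9 of 9, and the median absolute log2 fold change was 0.15 against 0.81 with LPS. The 9 were chosen by their difference with LPS, so that gap is no finding. Slc6a8 (-0.37 ± 0.14, SE) and Vwf (-0.51 ± 0.20, SE) had the furthest values from 0 without LPS. The test of the difference itself, the interaction of succinate with LPS, called 0 genes (0%), with a smallest adjusted p of 0.984. It had 560 genes at an unadjusted p below 0.05, among them all 9, and DESeq2 called 3 while limma-voom called 0. The difference by which the 9 were chosen is part of this interaction, so their place among the 560 is no finding either. Over all tested genes, 60.5% had the same sign with and without LPS. Those 2 contrasts share no library, and the Pearson r of their log2 fold changes was 0.229, a description across genes, which are not independent replicates.

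**Figure D3:**
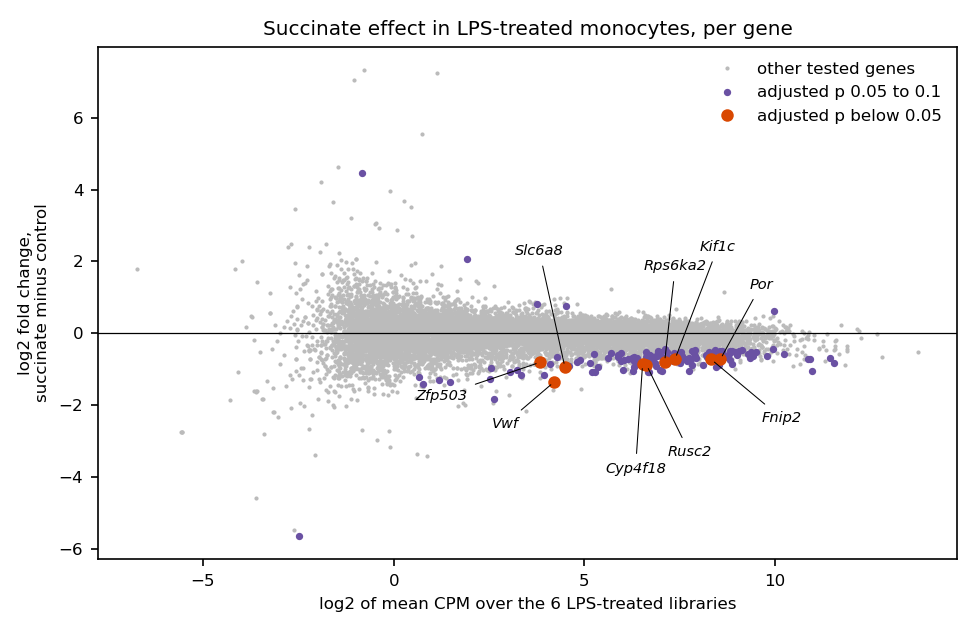
Log2 fold change of succinate against control in LPS-treated cells (vertical axis) against log2 of the mean CPM over the 6 LPS-treated libraries (horizontal axis), 1 point per tested gene. The 9 called genes (orange) are all below 0, as are 120 of the 125 further genes with an adjusted p of 0.05 to 0.1 (purple); the median of all genes is -0.014.

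The wider band of genes was mostly on the lower side too. At an adjusted p below 0.1, 129 genes were lower and 5 higher, 0.935% of those tested in both directions. These counts include the 9 called genes, and the others did not pass the threshold of 0.05 and are given as values. Next after the 9 came Itgb7, an integrin beta chain, with 215, 173 and 221 CPM in control and 121, 122 and 127 in succinate libraries (log2 fold change -0.72, adjusted p = 0.0533). P2rx7, the ATP-gated channel that feeds the NLRP3 inflammasome, had 207, 182 and 122 CPM against 73.7, 98.4 and 77.9 (-1.03, adjusted p = 0.0547). Slc7a2, an arginine transporter, had 85.9, 90.2 and 81.4 CPM against 30.9, 42.8 and 53.5 (-1.02, adjusted p = 0.0547). Csf2ra and Csf2rb2, receptor chains for GM-CSF and IL-3, had log2 fold changes of -0.52 (adjusted p = 0.0584) and -0.86 (adjusted p = 0.0547). Met, the hepatocyte growth factor receptor, had 461 ± 73.8 and 239 ± 12.5 CPM (SD, n = 3; adjusted p = 0.0655), and Il7r had 137 ± 39.0 and 64.8 ± 21.2 (SD, n = 3; adjusted p = 0.0655). On the higher side, the chaperone Hspa8 had 687, 781 and 916 CPM with control and 1383, 1290 and 988 with succinate (log2 fold change 0.62, adjusted p = 0.0736). Dmkn had 16.8 ± 2.78 and 28.7 ± 7.06 CPM (SD, n = 3; 0.77, adjusted p = 0.0679) and Ear6 1.45 ± 0.0951 and 6.12 ± 1.86 (2.07, adjusted p = 0.0659). The predicted gene Gm24447 was also among them, at under 1 CPM in the control group.

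Gene lists were described by counts, since no member other than Por and Fnip2 was called. Each list is given by its median log2 fold change, to be read against -0.014 over all genes. For most lists the number of members whose 3 succinate and 3 control LPS libraries did not overlap is given too. With library size alone the median of all genes was 0.107, and list medians shifted upwards with it. Over all tested genes 10.2% had no overlap with succinate lower and 6.95% with succinate higher. Lists differ in expression level and hence in error, and no list was tested.

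Interferon-stimulated genes had the most negative median among the gene lists, cell marker lists included. Of 51 tested, 49 had a log2 fold change below 0, the median was -0.59, and 19 (37.3%) had no overlap with succinate lower. None was called. Oasl1, an oligoadenylate synthetase-like protein, had 168, 115 and 138 CPM with control and 61.9, 55.0 and 80.4 with succinate. Its log2 fold change was -1.09 (adjusted p = 0.0547), and unstimulated control cells had 1.94 CPM. The antiviral radical enzyme Rsad2 (viperin) had 569, 399 and 471 CPM against 243, 225 and 307 (-0.89, adjusted p = 0.0793). Ifih1, the RNA sensor MDA5, had 200, 159 and 156 CPM against 77.1, 96.2 and 124 (-0.79, adjusted p = 0.0679). Each of these had no overlap between groups, with succinate lower. Cxcl10, an interferon-induced chemokine, also had no overlap but with succinate higher, at 456, 377 and 479 CPM with control and 516, 520 and 616 CPM with succinate (0.33, adjusted p = 0.522). The list median was -0.84 to -0.46 over the alternatives, and -0.09 without LPS. Interferon regulatory factors and STAT proteins had 16 of 19 members below 0 (median -0.26), 8 (42.1%) not overlapping, with Irf1 at 223, 160 and 123 against 98, 111 and 111 CPM (-0.66, adjusted p = 0.105).

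Promoter sequence was read for these genes because the interferon-stimulated response element (ISRE) is the site at which the interferon-activated factors bind. RefSeq windows of 250 bases before the RefSeq gene start (GRCm38.p6) were searched on both strands. The GENCODE annotation places the start of some of these genes elsewhere. The ISRE letters, GAAA followed by any 2 bases and GAAA again, were present in 22 of 42 windows of the interferon list (52.4%) and in 280 of 9884 windows of all tested genes (2.83%). The letters searched for the lysosomal, integrated stress response and NRF2 lists are given with those lists. The hypoxia response letters ACGTG were in 17 of 31 windows of HIF-1 genes (54.8%), a list with a median of 0.07. TTCNNNGAA, the STAT letters, was in 3 of 6 windows of anti-inflammatory genes (50%) against 6% of all. The ISRE letters were in 6 of 58 windows of ribosomal protein genes (10.3%). The lists searched were chosen after their values were seen. Shown are Rsad2 with its match and Oasl1 without one, then Asns of the integrated stress response with an ATF4 match, and Cyp4f18 and Fnip2, the called genes with a match to the antioxidant response element (ARE); the first and the last 3 were picked after their matches were seen. Capitals mark the matched letters of the named motif, which may be on either strand.
Rsad2: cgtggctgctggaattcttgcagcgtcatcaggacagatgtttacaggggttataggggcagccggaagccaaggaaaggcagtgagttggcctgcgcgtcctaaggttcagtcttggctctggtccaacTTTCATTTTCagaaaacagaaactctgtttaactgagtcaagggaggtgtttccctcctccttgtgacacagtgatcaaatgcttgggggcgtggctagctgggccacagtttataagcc
Oasl1: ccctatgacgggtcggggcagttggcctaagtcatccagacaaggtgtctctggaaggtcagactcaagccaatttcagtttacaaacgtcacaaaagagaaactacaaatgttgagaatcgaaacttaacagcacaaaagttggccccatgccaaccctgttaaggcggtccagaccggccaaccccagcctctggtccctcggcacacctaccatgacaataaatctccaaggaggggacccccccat
Asns: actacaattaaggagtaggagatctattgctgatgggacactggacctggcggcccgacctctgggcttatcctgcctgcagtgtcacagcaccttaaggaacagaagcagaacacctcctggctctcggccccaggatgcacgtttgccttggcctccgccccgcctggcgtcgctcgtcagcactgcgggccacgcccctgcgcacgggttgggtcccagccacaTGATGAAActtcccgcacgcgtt
Cyp4f18: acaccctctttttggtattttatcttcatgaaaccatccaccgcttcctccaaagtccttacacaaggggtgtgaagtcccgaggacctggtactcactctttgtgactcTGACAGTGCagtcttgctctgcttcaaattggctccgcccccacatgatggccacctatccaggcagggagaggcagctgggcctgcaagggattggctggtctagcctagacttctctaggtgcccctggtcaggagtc
Fnip2: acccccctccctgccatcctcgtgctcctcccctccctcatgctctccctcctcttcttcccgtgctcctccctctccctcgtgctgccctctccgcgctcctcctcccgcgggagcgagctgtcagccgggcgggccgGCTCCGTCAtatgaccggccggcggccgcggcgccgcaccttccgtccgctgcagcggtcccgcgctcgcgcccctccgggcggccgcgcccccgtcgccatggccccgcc
Rsad2 lies on the minus strand at chr12:26456453-26456702, Oasl1 on the plus strand at chr5:114922990-114923239, Asns on the minus strand at chr6:7693210-7693459, Cyp4f18 on the minus strand at chr8:72009627-72009876 and Fnip2 on the minus strand at chr3:79567680-79567929. In Rsad2 the match TTTCATTTTC, which is the reverse complement of the ISRE letters, starts 120 bases before the gene start. GENCODE starts Fnip2 at position 79567796 and Asns at 7693254, within the windows printed here. By that annotation the marked matches of Fnip2 and Asns lie inside the genes. Ifih1, like Oasl1, held no match in its window. Among the 9 called genes 7 had a window, and TGACNNNGC, the ARE letters, was in 2 of them (28.6%) against 12.2% of all windows. The Por window, at chr5:135688895-135689144, lies inside the gene by GENCODE, which starts Por at 135670033. None of those 7 windows held the ISRE, AP-1, STAT, STAT6, E-box, CRE or ATF4 letters, and 1 (Kif1c) held ACGTG, the hypoxia response letters, against 21.7% of all windows. A match is a description of letters in this window and no site of binding. The shares given for lists, here and below, compare lists with all tested genes and say nothing on the difference with succinate.

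Lysosomal genes were the list with the largest share of separated groups, cell marker lists aside. Of 42 tested, 37 were below 0, the median was -0.36, and 27 (64.3%) had no overlap with succinate lower. Gpnmb, a lysosome-associated glycoprotein of activated macrophages, had 3380, 2590 and 2132 CPM with control and 967, 1268 and 1675 with succinate (log2 fold change -1.05, adjusted p = 0.0655). The protease Ctsk had 58.1, 49.1 and 41.4 CPM against 15.4, 27.3 and 28.0 (-1.07, adjusted p = 0.0655), and the sphingolipid activator precursor Psap 4734, 3505 and 3291 against 1696, 2334 and 2443 (-0.83, adjusted p = 0.0679). Cd68 (-0.88, adjusted p = 0.0659), the protease Ctsb (-0.68, adjusted p = 0.0816) and the proton pump subunit Atp6v1a (-0.52, adjusted p = 0.0665) showed separated groups as well. The median was -0.47 to -0.24 over the alternatives and -0.21 without LPS. CACGTG, the E-box letters that TFEB and MITF family factors read, was in 8 of 32 lysosomal windows (25%) against 8.49% of all. Mitf itself had 125 ± 33.5 and 76.3 ± 19.3 CPM (SD, n = 3; -0.71, adjusted p = 0.245). Autophagy and mTORC1 genes, with Fnip2 as the 1 called member, had 27 of 38 below 0, 11 (28.9%) not overlapping, and a median of -0.09, which became 0.03 with library size alone. The proteasome had 27 of 31 below 0 and a median of -0.16 (-0.04 with library size alone), with 12 (38.7%) separated downwards.

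Cytosolic ribosomal protein genes went the other way. Of 79 tested, 77 were above 0 with a median of 0.18, and 40 (50.6%) had no overlap with succinate higher, though none was called. The 2 below 0 were Rpl30 and Rpl24, and Rpl24 is among the genes that set control LPS replicate 3 apart and had the lowest value of the list (-2.02). The median was 0.09 to 0.30 over the alternatives and 0 without LPS. These genes are short and their share of each library separates the groups as given above. Nuclear respiratory chain genes had 37 of 56 above 0 (median 0.08), nuclear ATP synthase genes 16 of 17 (0.11) and mitochondrially encoded genes 10 of 12 (0.11). Cell cycle genes had 32 of 40 above 0 and a median of 0.15, among them Mcm6 at 139 ± 30.2 and 184 ± 24.3 CPM (SD, n = 3; 0.41, adjusted p = 0.286).

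**Figure D4:**
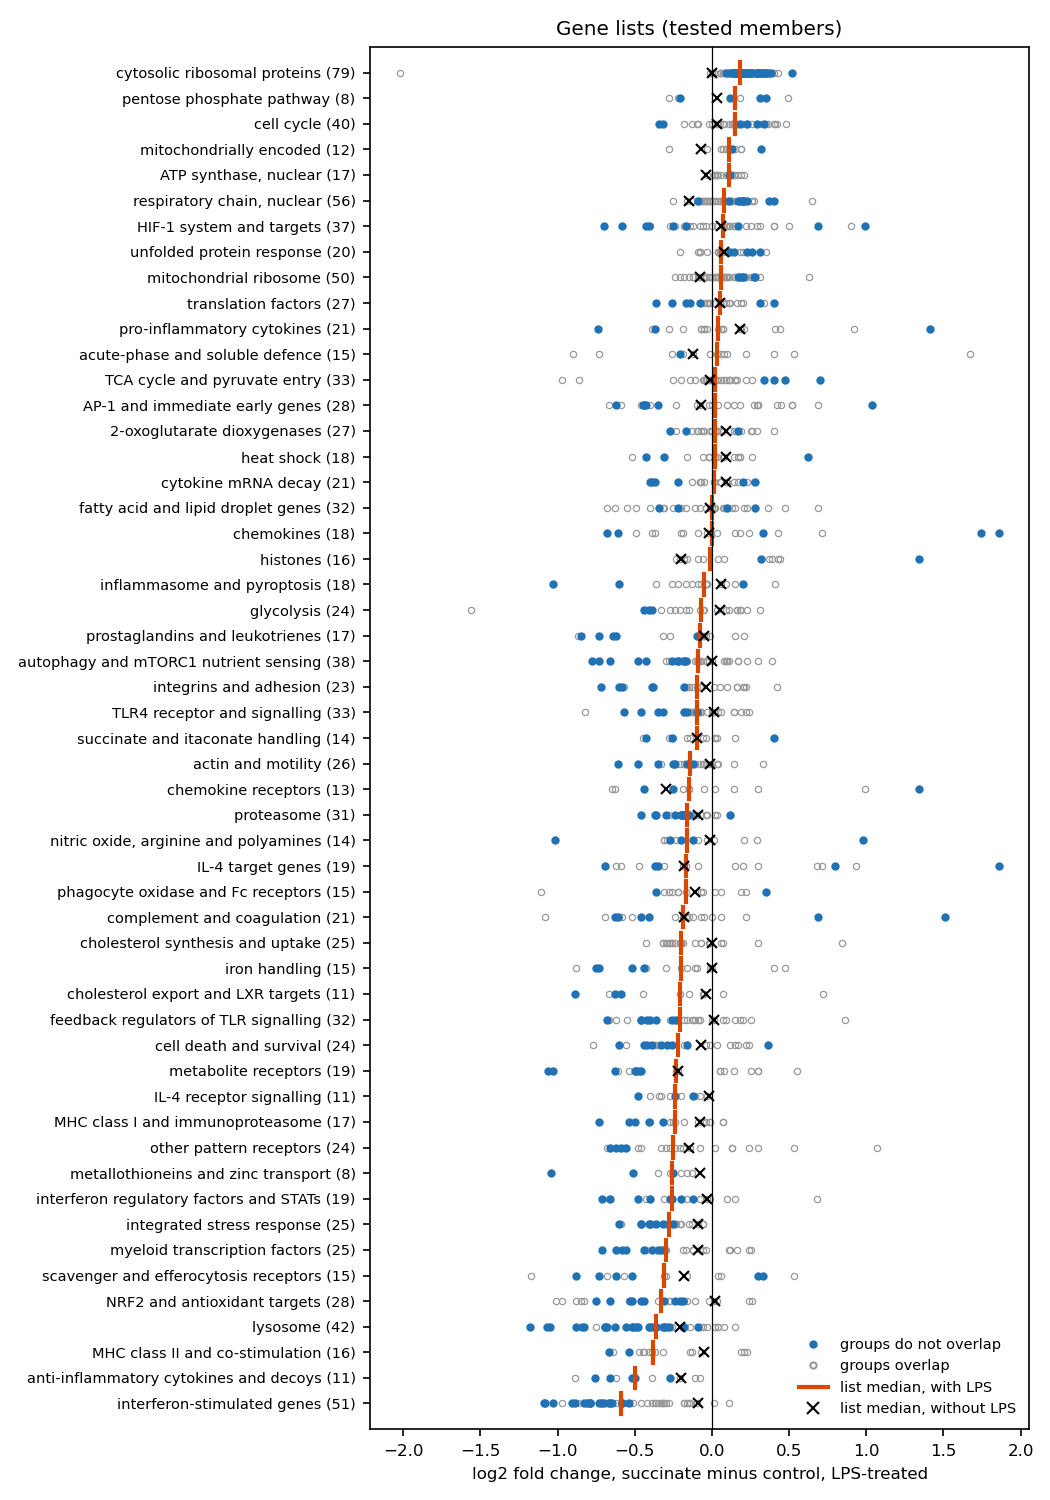
Log2 fold change of succinate against control after LPS (horizontal axis) for tested members of each list other than cell markers (rows, with the number of members), filled where the groups do not overlap and open where they do; orange bars are list medians with LPS and crosses list medians without LPS. Among these lists interferon-stimulated genes lie lowest (median -0.59) and cytosolic ribosomal proteins highest (0.18).

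Inflammatory mediators lay on both sides of 0, and none was called. Pro-inflammatory cytokines had 11 of 21 members above 0 (median 0.04) and chemokines 9 of 18 (median 0). Tnf had 497, 492 and 358 CPM with control and 413, 516 and 387 with succinate (log2 fold change -0.03, 95% interval -0.40 to 0.33; 0.09 with library size alone), and the groups overlapped. Il6 had 29.2, 23.8 and 31.6 CPM against 27.1, 33.8 and 54 (0.44, interval -0.24 to 1.13). Il1b had 353, 352 and 1122 CPM against 515, 797 and 1109, and 1 control library decides its value: the log2 fold change was 0.41 (adjusted p = 0.749) with control LPS replicate 3 and 1.19 (adjusted p = 0.076) without it. Il12b (0.18, interval -0.67 to 1.02), Ccl2 (0.18, interval -0.58 to 0.94), Ccl3 (0.24, interval -0.13 to 0.62) and Ccl5 (-0.37, interval -0.93 to 0.19) had groups that overlapped, and Ccl2 and Il12b were below 0 without succinate LPS replicate 2 (-0.34 and -0.13). Nos2, the inducible nitric oxide synthase, had 9.88, 9.41 and 28.0 CPM with control and 32.1, 29.3 and 32.1 with succinate. Its log2 fold change was 0.98 ± 0.33 (SE; adjusted p = 0.248), and 1.69 (adjusted p = 0.00985) without control LPS replicate 3. That library was the control library with the highest Nos2 and Il1b.

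Mediators that restrain inflammation were mostly below 0. Anti-inflammatory cytokines and decoy receptors had 11 of 11 members below 0 and a median of -0.50, 5 of them (45.5%) with no overlap, and none was called. Il10 had 89.5, 115 and 84.2 CPM with control and 58.6, 76.5 and 47.4 with succinate (log2 fold change -0.66, interval -1.12 to -0.20, adjusted p = 0.227). Il1rn, the IL-1 receptor antagonist, had 3002, 2885 and 3651 CPM against 1226, 1728 and 2664 (-0.76, adjusted p = 0.196), and the TNF receptor Tnfrsf1b 4603, 4156 and 4432 against 2656, 3214 and 3468 (-0.50, adjusted p = 0.104). The list median was -0.52 to -0.31 over the alternatives. Feedback regulators of TLR signalling had 23 of 32 below 0, 8 (25%) of them not overlapping, and a median of -0.21 that was -0.09 without control LPS replicate 3 and -0.09 with library size alone. Among them were the phosphatase Dusp1 at 201, 209 and 246 CPM against 112, 158 and 140 (-0.68, adjusted p = 0.0781) and the ubiquitin-editing enzyme Tnfaip3 at 1369 ± 25.7 and 996 ± 123 CPM (SD, n = 3; -0.46, adjusted p = 0.305). TLR4 and its signalling components had 24 of 33 below 0 with a median of -0.10, which was 0.02 with library size alone. Tlr4 itself had 75.8 ± 19.6 and 89.2 ± 9.06 CPM (SD, n = 3; adjusted p = 0.665) and its co-receptor Cd14 3004 ± 388 and 2191 ± 368 (SD, n = 3; -0.46, adjusted p = 0.253).

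**Figure D5:**
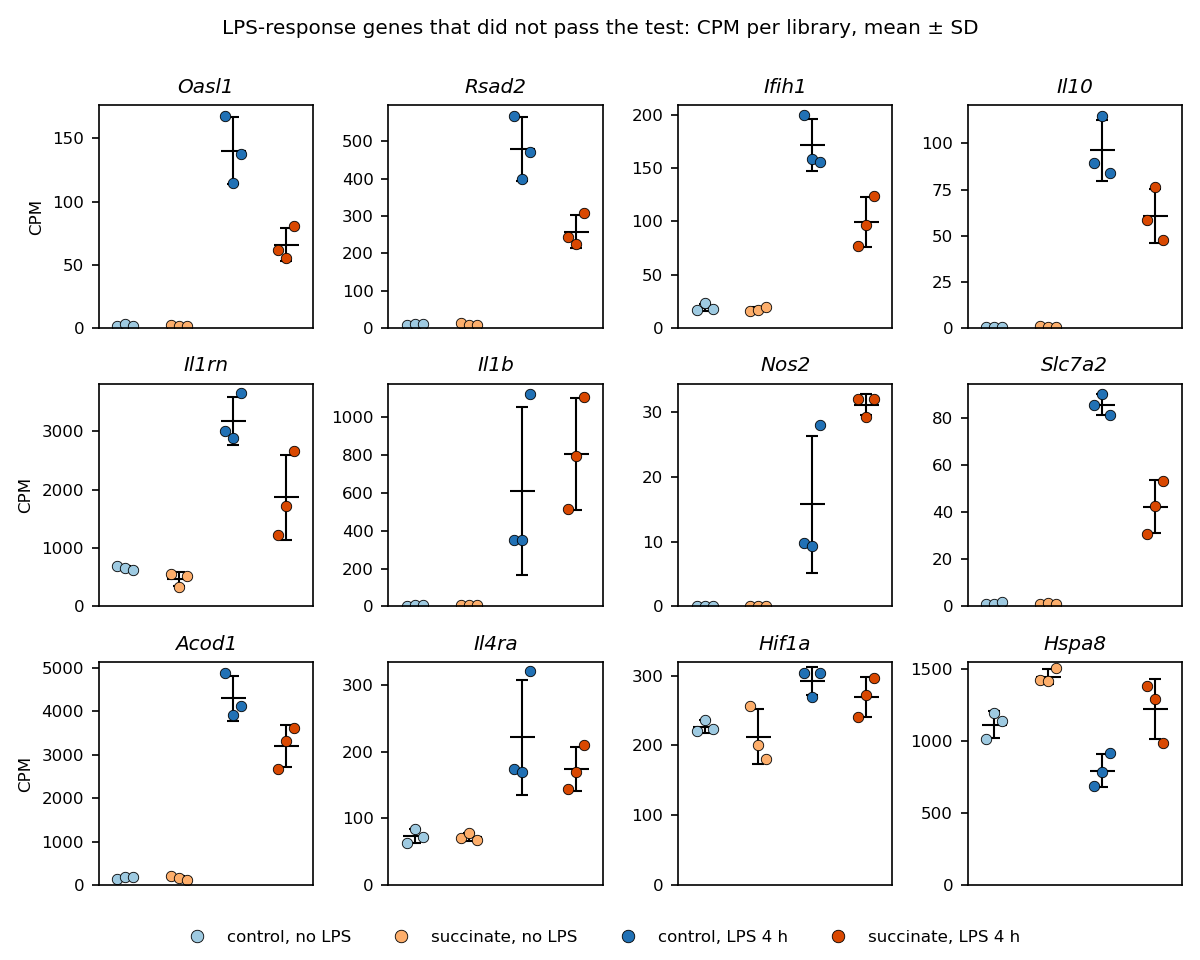
CPM per library (vertical axis, linear from 0) of 12 genes of the interferon, cytokine, arginine, itaconate, IL-4 receptor, HIF-1 and heat shock lists that did not pass the test, with means and SD (n = 3) in the 4 groups. Il1b, Nos2 and Il4ra each have 1 control LPS library well above the other 2, and Oasl1, Rsad2, Ifih1, Il10, Il1rn, Slc7a2 and Acod1 have all succinate LPS libraries below all control LPS libraries.

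Neither component of the route named in the series title was called at the level of mRNA. Il4ra had 174, 169 and 321 CPM with control and 144, 169 and 210 with succinate (log2 fold change -0.34, interval -0.80 to 0.11, adjusted p = 0.58), and 0.02 without control LPS replicate 3, the high control library. Stat6, its signal transducer, had 265, 279 and 261 CPM against 233, 251 and 257 (-0.12, interval -0.33 to 0.08). IL-4 receptor signalling as a list had 11 of 11 members below 0, 3 (27.3%) not overlapping, and a median of -0.24 that was -0.14 without control LPS replicate 3 and -0.12 with library size alone. IL-4 target genes had 8 of 19 above 0, with 2 separated upwards and 3 downwards, and a median of -0.17 that was -0.08 without control LPS replicate 3, with Mgl2, a lectin of alternatively activated cells, at 7.87, 10.8 and 14.9 CPM against 18.6, 18.7 and 21.3 (0.80, adjusted p = 0.12). Arg1 had too few counts to test. Hif1a had 303, 269 and 304 CPM against 240, 272 and 296 (-0.12, interval -0.39 to 0.16), and 0.00 with library size alone. HIF-1 genes had 21 of 37 above 0, with 3 separated upwards and 6 downwards, and a median of 0.07, and the members named here lay below 0. These were Ndrg1 at 300 ± 36.1 and 184 ± 31.6 CPM (SD, n = 3; -0.70, adjusted p = 0.0676), Bhlhe40 at -0.58 (adjusted p = 0.0655), Vegfa at -0.43 (adjusted p = 0.248) and Slc2a1 at -0.41 (adjusted p = 0.395). The intervals given exclude a 2-fold difference in mRNA for Il4ra, Stat6 and Hif1a. RNA counts do not measure protein, so HIF-1α stability, IL-4 receptor protein and the route itself were not tested.

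No gene that makes or handles succinate was called. Succinate and itaconate genes had 9 of 14 tested members below 0, with a median of -0.10 that was 0.02 with library size alone. Acod1, which makes itaconate, had 4887, 3907 and 4112 CPM with control and 2676, 3308 and 3613 with succinate (log2 fold change -0.43 ± 0.20, SE; adjusted p = 0.424). The succinate dehydrogenase subunit Sdha had 148 ± 8.30 and 143 ± 16.2 CPM (SD, n = 3; -0.06, interval -0.31 to 0.19; 0.06 with library size alone). Sucnr1, the succinate receptor, had 2 counts over all 12 libraries and could not be tested. Glycolysis (10 of 24 above 0, median -0.07, and 0.02 without control LPS replicate 3 and 0.05 with library size alone) and the tricarboxylic acid cycle (19 of 33, median 0.02) lay near the median of all genes, and Ldha was at -0.08 (interval -0.37 to 0.21; 0.04 with library size alone). The receptors for extracellular metabolites and lipid mediators had 11 of 19 below 0 and a median of -0.23, which was 0.07 without control LPS replicate 3. Among them the platelet-activating factor receptor Ptafr had 867, 765 and 849 CPM against 414, 548 and 640 (-0.63, adjusted p = 0.0835), and the adenosine receptor Adora2a 231, 216 and 231 against 132, 173 and 175 (-0.50, adjusted p = 0.236).

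The integrated stress response and NRF2 lists lay below the median of all genes. The integrated stress response, which runs through ATF4, had 25 of 25 members below 0 and a median of -0.28, with 9 (36%) not overlapping. Asns, asparagine synthetase, had 296, 298 and 346 CPM with control and 212, 232 and 269 with succinate (log2 fold change -0.40, adjusted p = 0.135), and the amino acid transporter chain Slc3a2 1283, 1061 and 954 against 718, 715 and 737 (-0.60, adjusted p = 0.15). TGATGNAA, the ATF4 letters, was in 5 of 21 windows of this list (23.8%) against 2.08% of all windows. NRF2 and its antioxidant targets had 24 of 28 below 0 and a median of -0.33, 10 of them (35.7%) not overlapping. That median was -0.54 without control LPS replicate 3 and -0.21 with library size alone, and the ARE letters were in 5 of 25 of their windows (20%) against 12.2%. Sqstm1, an autophagy receptor, had 10603, 8561 and 7219 CPM against 5399, 6067 and 5217 (-0.66, adjusted p = 0.139), and the ferritin chain Fth1 18100, 15298 and 15081 against 10483, 11141 and 12264 (-0.52, adjusted p = 0.173). The haem oxygenase gene Hmox1 varied within the control group, at 7377, 4459 and 2323 CPM, and was 2808, 2402 and 2489 with succinate (-0.88, interval -1.84 to 0.08). Nfe2l2, which encodes NRF2, had 473 ± 34.7 and 400 ± 41.8 CPM (SD, n = 3; -0.24, adjusted p = 0.49). The zinc exporter Slc30a1 had 249, 155 and 121 CPM against 73.6, 88.9 and 93.1 (-1.04, adjusted p = 0.0619), in a list of metallothioneins and zinc transporters with 8 of 8 members below 0 and a median of -0.26, 3 (37.5%) not overlapping. The unfolded protein response (14 of 20 above 0, median 0.06) and heat shock genes (10 of 18, median 0.02) lay near 0.

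Eicosanoid genes include the called gene Por through its role in oxidation. Of 17 tested, 15 were below 0 with a median of -0.08, which was 0.04 with library size alone, and 5 (29.4%) had no overlap. The prostaglandin E synthase Ptges had 476, 426 and 438 CPM with control and 175, 268 and 415 with succinate (log2 fold change -0.64, adjusted p = 0.278), and the cyclooxygenase Ptgs2 535, 473 and 449 against 425, 478 and 301 (-0.27, adjusted p = 0.717). The receptor gene Ptger2, which responds to prostaglandin E2, had 71.4 ± 5.32 and 46.5 ± 2.97 CPM (SD, n = 3; -0.62, adjusted p = 0.117). Among antigen presentation genes, MHC class II and co-stimulation genes had 13 of 16 below 0, with a median of -0.38 that was -0.15 without control LPS replicate 3. Of the 16, 2 (12.5%) had no overlap with succinate lower, near the 10.2% of all tested genes. The dendritic marker sum given above was lower with succinate too, and its part was not tested. The co-stimulatory ligand gene Cd86 was at 102, 87.6 and 100 CPM against 45.2, 71.2 and 65.0 (-0.67, adjusted p = 0.0965), while MHC class I and immunoproteasome genes had 15 of 17 (median -0.24). Myeloid transcription factors had 20 of 25 below 0 (median -0.30), 9 (36%) not overlapping, with Cebpb at 855, 763 and 1097 CPM against 613, 694 and 535 (-0.56, adjusted p = 0.118).

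The precision of the data sets what could be seen. Log2 fold changes had a median SE of 0.19 over all tested genes and of 0.14 at 10 CPM or more. Of the 8434 genes at or above that level, 7969 (94.5%) had a 95% interval wholly within 2-fold in both directions. The 9 called genes had GC contents of 49.2% to 60.9% against a median of 49.2%, and exonic lengths of 1855 to 16064 bases against 3881. The median log2 fold change was 0.01 in the fifth of genes lowest in GC and -0.06 in the highest. With trends of GC and length removed, 8 of the 9 were still called, all but Rusc2, among 54 lower and 3 higher.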

How the data were processed

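RNA was sequenced from sorted bone marrow monocytes in 12 libraries, 3 in each of 4 groups taken from the sample titles. The authors deposited raw read counts per gene, 1 file per library. Per the submitters' processing notes, reads were trimmed with Trim Galore and the build was mm10. The aligner, the counter, its annotation and its strand setting were not stated in the labels or notes. Whether the counts separate overlapping and antisense genes is therefore not known. Genes were matched to GENCODE M21 (54495 of 54532 identifiers).

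From the counts, edgeR 4.0.16 in R 4.3.3 was run on all 12 libraries with 1 mean per group, filterByExpr (14324 genes kept, 14239 with counts removed) and TMM scaling. Its quasi-likelihood test compared succinate LPS with control LPS, with Benjamini-Hochberg adjustment and a threshold of 0.05. The fit was tested on simulated data. CPM use TMM-scaled library sizes and are not per gene length, so levels are not compared between genes. SE is the log2 fold change divided by the root of F. Replicates differed beyond sampling noise in each group (chi-square per degree of freedom 6.42 to 38.72), so none was merged. LPS-treated libraries with the same replicate number did not deviate together, and unstimulated libraries were not compared in this way. DESeq2 1.42.0, limma-voom (limma 3.58.1), other filters and scalings, a replicate block, covariates and leaving out each library were alternatives.

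Genes were named by 3 rules: called genes with the largest fold change (up to 12 per direction, at least 10 CPM, no overlap of libraries, no predicted or ribosomal genes), up to 3 called members of each list, and genes of interest. A further 77 genes were picked after their values were seen, and not all of them are printed here. Members, lists and rules were chosen with earlier results of these data known. The values of 1 gene higher with succinate at an adjusted p below 0.1 are not reported here.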

Additional observations from a re-analysis of the deposited data

How the results depend on the processing

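Against 9 genes lower and 0 higher with succinate after LPS, no filter on low counts gave 573 and 121, a stricter filter 30 and 0, DESeq2 323 and 23, limma-voom 34 and 0, library size alone 0 and 0, the 6 LPS-treated libraries alone 0 and 0, a covariate for the S100a4 library split 171 and 19, and removal of GC and length trends 54 and 3. RLE scaling gave 9 and 0. Leaving out 1 library gave 0 to 181 lower and 0 to 16 higher. The cause of these shifts was not tested. Replicate numbers did not pair the LPS-treated libraries (correlation of deviations -0.033, 0.018 and 0.093 for same-numbered libraries). In unstimulated cells the S100a4 split did follow the replicate number, low in replicate 1 and high in replicates 2 and 3 of both groups. With the replicate block, 72 genes were lower and 5 higher over 12 libraries, and 0 and 0 over the 6 LPS-treated libraries. The interaction gave 71 calls with no filter and 3 with DESeq2, and the contrast without LPS gave 72 and 1, against 0 in the main analyses. None of the 9 called genes reversed in any alternative.

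Among uncalled genes some signs turned. Library size alone gave a log2 fold change of 0.00 for Hif1a, 0.04 for Ldha, 0.06 for Sdha and 0.09 for Tnf. Leaving out 1 library gave Ccl2 -0.34 to 0.39, with -0.05 without control LPS replicate 1 and -0.34 without succinate LPS replicate 2. Such values ran from -0.13 to 0.46 for Il12b, -0.51 to 0.02 for Il4ra and -0.23 to 0.01 for Ldha. Il12b was -0.13 without succinate LPS replicate 2, Il4ra 0.02 without control LPS replicate 3, and Ldha 0.01 without control LPS replicate 3 or succinate LPS replicate 1. Tnf was 0.04 without control LPS replicate 1 or 2, 0.01 without succinate LPS replicate 1 and 0.05 without succinate LPS replicate 3, with -0.17 the lowest such value. Depth limits the genes of low count: the median SE was 0.19 over all genes against 0.14 at 10 CPM or more.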
